A study of Glycine max and Zea mays with 6 samples.

Results

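Soybean (Glycine max) has a series of genes whose symbols PM and PGMPM come from the seed maturation proteins. In leaf, 8 of them, PGMPM10, PGMPM18, PM12, PM24, PM25, PM31, PM32 and PM40, carried the histone mark H3K4me3 near a gene end and neither H3K56ac nor H3K36me3. These names give the lysine of histone H3 that is trimethylated (me3) or acetylated (ac). They are 8 of the 46816 protein-coding genes of the RefSeq gene table on the 20 chromosomes. They were chosen by symbol for this combination of marks, so the combination itself is a description and is not tested.

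All 3 marks were mapped by ChIP-seq, which sequences the DNA that an antibody against a mark pulls down, in leaves of the accession William82. The plants were untreated and stood in soil for about 10 days, at 25 °C and under days of 16 h light and 8 h darkness. The tissue was fixed with 1% formaldehyde. For the H3K4me3 sample the labels conflict: its title and antibody say H3K4me3, which is followed here, but the series' design text lists H3K4me1 in its place, so every H3K4me3 value rests on the sample's own labels. A leaf holds many cell types, and a mark in some of the cells cannot be told apart from one in all of them. Each mark had 1 library, so no value has a replicate check and none carries a p-value. The study, named for the use of histone marks in genome annotation, holds 6 samples, and its soybean and maize inputs and its maize ear library were not used here.

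Seed maturation proteins accumulate in the embryo late in seed development, when the seed gains tolerance to drying. Many of them are late embryogenesis abundant (LEA) proteins, hydrophilic proteins known for protecting cells during water loss. Transcription factors such as LEC1, FUS3 and ABI3 and the hormone abscisic acid switch these genes on in the seed, and in Arabidopsis the program is shut down after germination, in part by Polycomb group proteins, whose marks were not measured here. In plants H3K4me3 is known at the 5′ ends of transcribed genes, H3K56ac at active promoters, and H3K36me3 along the bodies of transcribed genes.

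The soybean lists held 51142 H3K4me3 peaks, 60424 H3K56ac peaks and 32195 H3K36me3 regions on the 20 chromosomes. They give positions without scores or read counts, so depth is unknown, and a gene without a mark is a gene without a call at the submitters' threshold. For H3K4me3 and H3K56ac, a gene counted as marked when at least 1 bp of a peak fell no farther than 1 kb, outward or inward, from one of its ends. For H3K36me3, at least 1 bp of a region had to fall in the gene itself. By these rules H3K4me3 was found at 73.1% of all protein-coding genes, H3K56ac at 69.5% and H3K36me3 at 51.1%. H3K4me3 alone was found at 3164 genes, a background of 6.76%, and all 3 marks at 49.3%. Of 7 genes used as leaf markers, among them RBCS1 for the small subunit of Rubisco, 7 had both H3K4me3 and H3K56ac and 6 also had H3K36me3. All 4 leghemoglobin genes, markers of the root nodule, were without any mark. Both marker sets were short lists of names, and other genes of like symbols differed. RBCS2 had H3K4me3 alone, over 79 bp. N-22 and N-44, which have nodulin symbols, had it alone over 288 and 631 bp.

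The 8 genes fell into those with H3K4me3 over most of the gene and those with a short stretch of it. In PM12, PM24, PM25 and PM32 H3K4me3 covered 100%, 98.8%, 87.4% and 82.1% of the gene. It covered 61.2% of PGMPM18 and 54.8% of PM31. In PM40 and PGMPM10 it covered 13.1% and 11.9%. The gene table gives no strand, so a gene's ends are named here by their coordinate, lower or upper, and which of them is the 5′ end is not known.

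**Figure D1:**
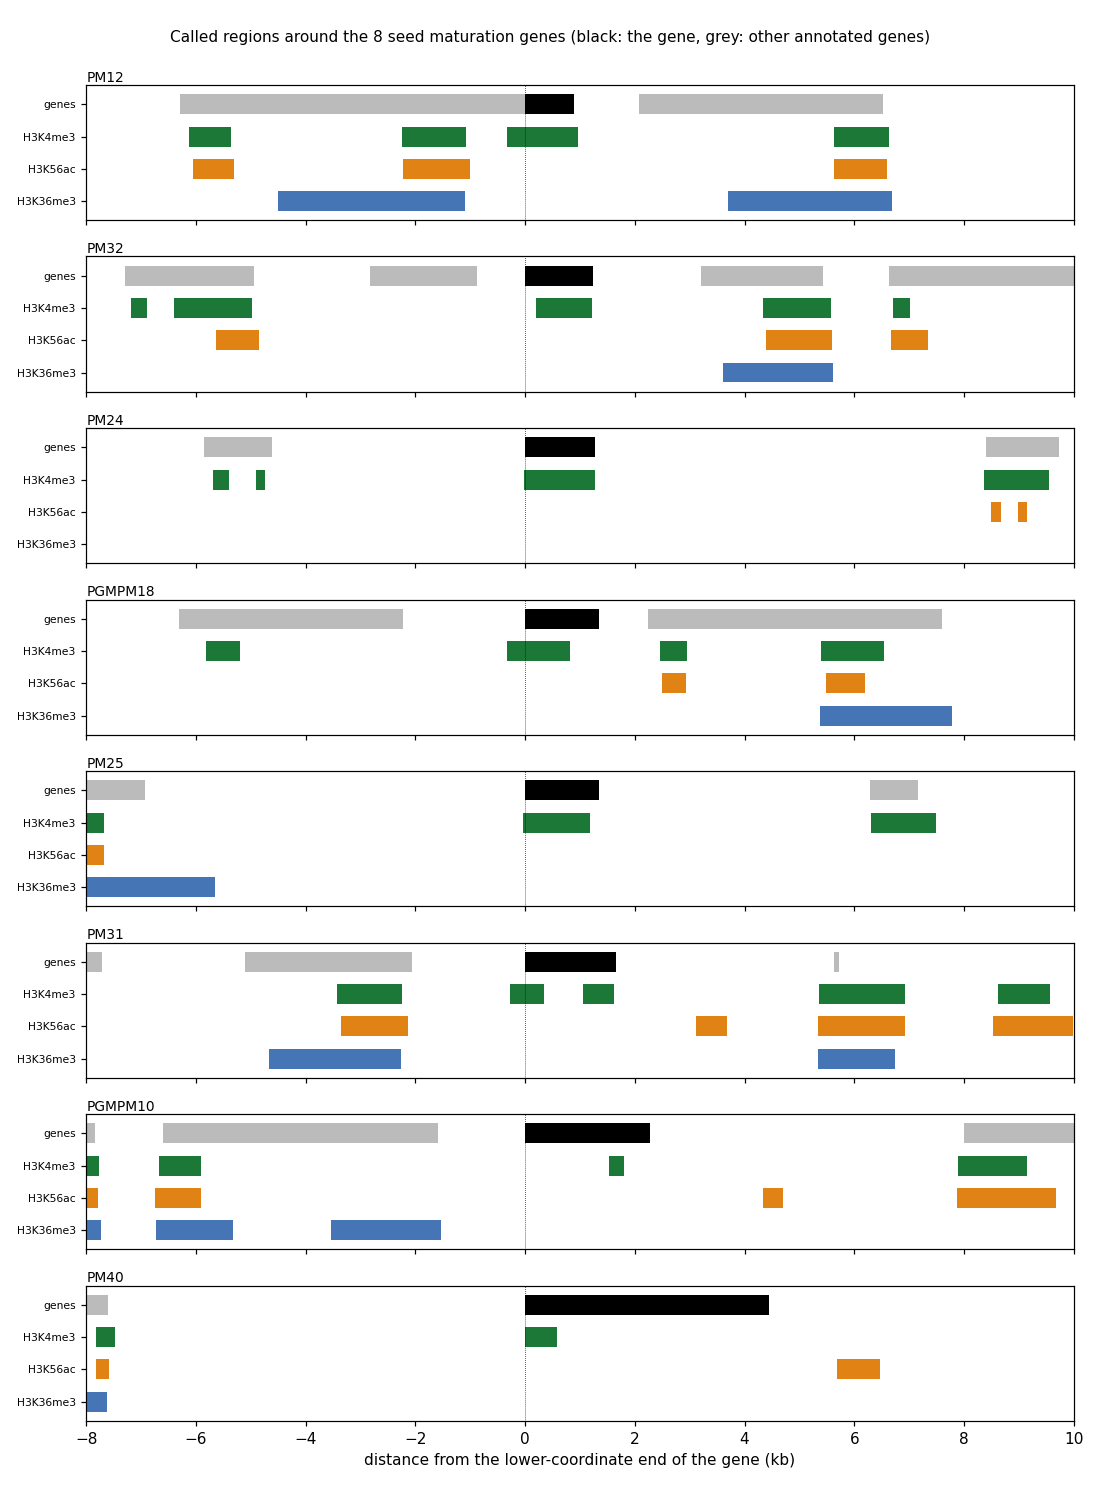
Annotated genes and called regions of the 3 marks around each of the 8 genes, in kb from the lower-coordinate end of the gene, ordered from the shortest gene (PM12, 885 bp) to the longest (PM40, 4445 bp). Black bars are the genes described, grey bars other annotated genes, and no orange (H3K56ac) or blue (H3K36me3) bar overlaps a black one.

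PM12 was the shortest of the 8, at 885 bp, and lay wholly inside its H3K4me3 peak. The peak of 1298 bp, at 777778 to 779075 on chromosome 4, reached 327 bp past the lower end of the gene and 86 bp past the upper end. PM12 overlaps the neighbouring gene LOC100527811 by 27 bp, so the lower part of the peak also lies in that gene, and the files cannot assign it to one of them.

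PM24 and PM25 had peaks that nearly matched the gene in length. In PM24, of 1281 bp, the peak of 1291 bp on chromosome 10 began 25 bp before the lower end and stopped 15 bp short of the upper end. In PM25, of 1350 bp, the peak of 1224 bp on chromosome 20 began 44 bp before the lower end and stopped 170 bp short of the upper end. Both peaks thus started within 44 bp of the lower gene end and ran over most of the gene.

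PM32 and PGMPM18 were covered toward one side. The PM32 peak, 1016 bp on chromosome 13, left the first 206 bp from the lower end of the 1237 bp gene uncovered and stopped 15 bp short of the upper end. The PGMPM18 peak, 1153 bp on chromosome 3, began 328 bp before the lower end of the 1347 bp gene and stopped 522 bp short of the upper end. The mark was shifted to the upper side in the first gene and to the lower side in the second.

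PM31 was the single gene of the 8 with 2 H3K4me3 peaks. On chromosome 2, a peak of 625 bp began 279 bp before the lower end of the 1651 bp gene, and a second one of 559 bp ended 39 bp short of the upper end. The stretch of the gene between these peaks held no H3K4me3.

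PM40 and PGMPM10, the longest of the 8 genes, had the shortest H3K4me3. In PM40, of 4445 bp, a peak of 582 bp on chromosome 5 started at the first base of the gene as annotated and left 3863 bp uncovered. In PGMPM10, of 2274 bp, the peak was 270 bp long and lay inside the gene on chromosome 13, 1528 bp from the lower end and 476 bp from the upper end. PGMPM10 was the single gene of the 8 with no H3K4me3 within 100 bp of either end, and it entered the set because the windows at gene ends reach 1 kb inward.

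Within 100 bp of a gene end, H3K4me3 was found at both ends of PM12, PM24 and PM31, at the lower end of PGMPM18, PM25 and PM40 and at the upper end of PM32. Both ends were thus marked in 3 of the 8 genes, against 9.51% of all genes with H3K4me3 alone. Among the 1428 such genes of up to 2000 bp, this share was 18.8%, and among genes of this length with all 3 marks 47.3%. Of the 8, 6 have this length, PM12, PM24 and PM31 among them. In 47.5% of all genes with H3K4me3 alone neither end was marked at this distance, against 1 of the 8. This share was 36.3% for those of up to 2000 bp.

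H3K4me3 over the gene and 1 kb either side summed to 1298 bp in PM12, 1291 bp in PM24, 1224 bp in PM25, 1184 bp in PM31, 1153 bp in PGMPM18, 1016 bp in PM32, 582 bp in PM40 and 270 bp in PGMPM10. The first 6 values lie close together and the last 2 apart from them. The median of the 8 was 1168.5 bp. For all 3164 genes with H3K4me3 alone the median was 610 bp, with quartiles of 308 and 980 bp, so 6 of the 8 lay above the upper quartile. For all 34227 genes with H3K4me3, whatever their other marks, the median was 1138 bp.

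**Figure D2:**
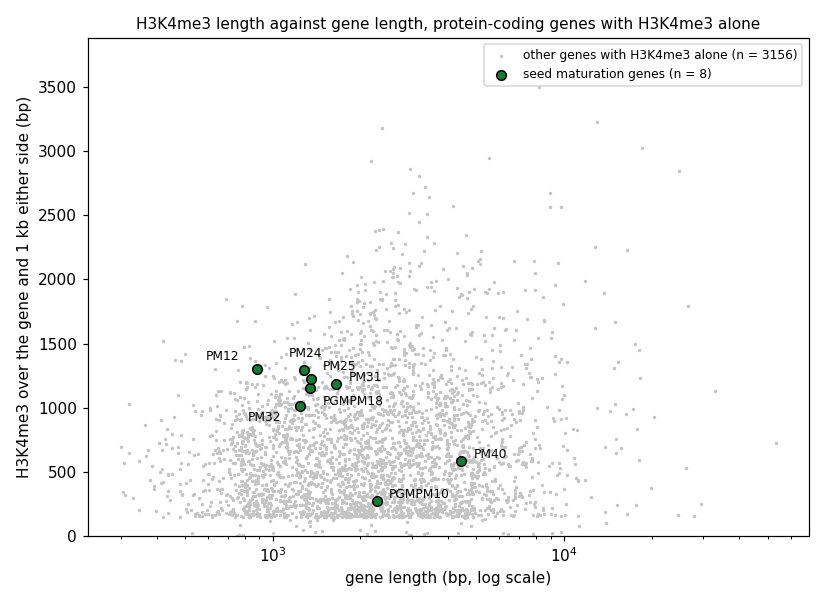
Length of H3K4me3 over the gene and 1 kb either side (bp, vertical axis) against gene length (bp, log scale) for the 8 genes, shown as green points, and for the other 3156 protein-coding genes with H3K4me3 alone, shown in grey. The 6 genes of 885 to 1651 bp lie between 1016 and 1298 bp of H3K4me3, and PM40 and PGMPM10 lie lower, at 582 and 270 bp.

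Short genes can hold less of a mark inside them, so genes of up to 2000 bp were also set apart. The 6 seed maturation genes of this length had 54.8% to 100% of the gene under H3K4me3, with a median of 84.8%. The median was 44.1% for the 1428 genes of this length with H3K4me3 alone, 58.2% for the 2783 with H3K4me3 and H3K56ac, and 76.4% for the 2537 with all 3 marks. Over 80% of the gene was covered in PM12, PM24, PM25 and PM32. This was so for 21.1% of short genes with H3K4me3 alone, 31.4% with H3K4me3 and H3K56ac, and 47.2% with all 3 marks. In covered length the 6 genes, at a median of 1204 bp, were nearer to the short genes with all 3 marks, at 1301 bp, than to those with H3K4me3 alone, at 574 bp.

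Single peaks were compared by length as well. Of the 51142 H3K4me3 peaks, 7297 (14.3%) overlapped neither other mark, and these had a median length of 381 bp, with quartiles of 218 and 709 bp. The 9 peaks of the 8 genes all belong to this class. Those of PM12, PM24, PM25, PGMPM18 and PM32 were longer than 1000 bp, a length that 11.5% of the class reached. The peak of PGMPM10 was shorter than the median of the class, and those of PM40 and PM31 lay between its median and its upper quartile.

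H3K56ac lay closest to PM12. The nearest H3K56ac peak was 1010 bp from PM12, 1143 bp from PGMPM18, 1242 bp from PM40, 1459 bp from PM31, 2061 bp from PGMPM10, 3160 bp from PM32, 7208 bp from PM24 and 7670 bp from PM25. The median of the 8 distances was 1760 bp, against 5305 bp for all genes with H3K4me3 alone. PM12 therefore stands at the limit of the class: its nearest H3K56ac peak lay 11 bp outside the 1 kb window, less than the 100 bp by which peak and gene positions may be offset around this gene. On the other side of the limit, PM27, with 1167 bp of H3K4me3, had H3K56ac 99 bp inside the window and counts as acetylated. With windows of 2 kb, PM12, PGMPM18, PM31 and PM40 gained H3K56ac and 4 of the 8 genes remained with H3K4me3 alone, PGMPM10, PM24, PM25 and PM32.

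**Figure D3:**
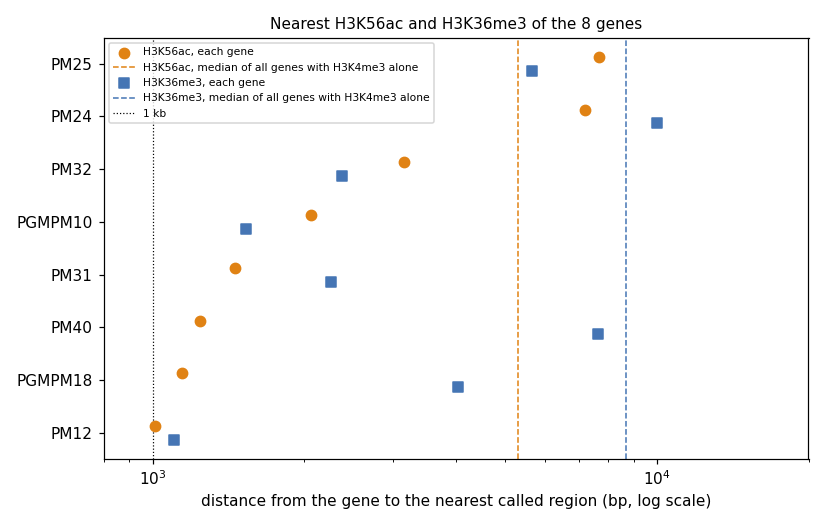
Distance in bp (log scale) from each of the 8 genes to the nearest H3K56ac peak (circles) and the nearest H3K36me3 region (squares), with dashed lines at the medians of all genes with H3K4me3 alone (5305 and 8693 bp) and a dotted line at 1 kb. Points for PM12 lie just past the dotted line, and PM24 and PM25 have their nearest H3K56ac more than 7 kb away.

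The genes at which these H3K56ac peaks lay differed among the 8. For PM12, PGMPM18, PM24, PM25 and PM32 the nearest peak overlapped another annotated gene and H3K4me3, and it was 1220, 450, 179, 419 and 1193 bp long. For PM31, PM40 and PGMPM10 the nearest peak overlapped neither an annotated gene nor H3K4me3. These 3 peaks were 575, 777 and 362 bp long and lay past the upper end of the gene. Of all genes with H3K4me3 alone, 15.2% had such a peak as their nearest, and 16.2% of all H3K56ac peaks were of this kind. With 8 genes the count of 3 is small, and its difference from this share was not tested.

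H3K36me3 lay 1104 bp from PM12, 1533 bp from PGMPM10, 2261 bp from PM31, 2376 bp from PM32, 4028 bp from PGMPM18, 5661 bp from PM25, 7631 bp from PM40 and 10021 bp from PM24. The median was 3202 bp, against 8693 bp for all genes with H3K4me3 alone. For 7 of the 8 the nearest region lay in the adjacent annotated gene, and for PM24 it lay in LOC100778094, beyond the adjacent long non-coding RNA gene. No H3K36me3 thus lay within 1 kb of any of the 8 genes.

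Genes beside the 8 were often fully marked, at a share near that of genes in general. Of the 16 nearest protein-coding genes on the lower and upper sides of the 8 genes, 10 had all 3 marks (62.5%). This share was 42.8% beside all genes with H3K4me3 alone and 57.3% beside genes with all 3 marks, and among all protein-coding genes 49.3% had all 3 marks. The difference between these shares was not tested. Within 50 kb of the 8 genes lay 84 protein-coding genes, of which 46.4% had all 3 marks, from 12.5% of 8 genes around PM25 to 69.2% of 13 around PGMPM10.

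Single neighbourhoods differed. PM12 lay between LOC100527811, with 73.3% of its length under H3K36me3, and LOC100778123, with 63.6%, and both of these carried all 3 marks. PGMPM10 also lay between genes with all 3 marks, LOC100776940 and LOC100777468. PGMPM18 lay between LOC100806269, itself with H3K4me3 alone over 623 bp, and LOC100499979, with all 3 marks.

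The adjacent annotated genes of the others ranged from fully marked on both sides, at PM31, to none with all 3 marks, at PM24. Within 50 kb the order was the reverse. All 3 marks were found at 5 of 8 protein-coding genes around PM24 (62.5%) and at 6 of 13 around PM31 (46.2%). PM24 lay between the long non-coding RNA gene LOC112998112, with H3K4me3 alone, and LOC102667886, with H3K4me3 and H3K56ac. PM25 had LOC100808440 with all 3 marks 6933 bp away on the lower side, and LOC102666896 with 1187 bp of H3K4me3 alone 4939 bp away on the upper side. PM31 lay between LOC100778071 and the microRNA gene MIR1510B, both with all 3 marks. PM32 had the unmarked LOC121173328 at 881 bp and the fully marked LOC100801194 at 1969 bp. PM40 stood most alone, with the fully marked LOC100780296 at 7606 bp and the unmarked LOC100783529 at 14389 bp.

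The 8 genes belong to a wider series of seed maturation and LEA genes. Symbols or synonyms of the PM, PGMPM, LEA, MAT and DHN kinds matched 35 genes, 29 by symbol and 6 by synonym. Of the 35, 22 had H3K4me3, 14 had H3K56ac and 7 had H3K36me3. H3K4me3 alone was found at 12 (background 6.76%), H3K4me3 and H3K56ac at 5 (background 16.3%), all 3 marks at 4 (49.3%) and no mark at 6 (22.2%). The rarer classes were H3K56ac alone at 5 genes (background 3.61%), H3K36me3 alone at 2 (0.758%) and H3K4me3 with H3K36me3 at 1 (0.748%). Since the 8 genes were picked from this series for their marks, the count of 12 says nothing beyond that choice. Among the other 27, H3K4me3 alone was found at 4 (14.8%, background 6.76%) and all 3 marks at 4 (14.8%, background 49.3%). The 8 are all the genes of this list with a PM or PGMPM symbol and H3K4me3 alone. The 4 could thus only come from genes with other symbols. Taking out the 8 lowers the first of these shares and raises the second, so neither can be judged against its background.

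The 4 other genes with H3K4me3 alone were MP2 (synonym PM2), CP3 (synonym GmPM33), MAT1 and DEHYDRIN. MAT1 and DEHYDRIN are dehydrins, LEA proteins that accumulate in drying seeds and in water stress. MP2 had 1900 bp of H3K4me3, longer than in any of the 8, with 79.9% of the gene covered. CP3 had 953 bp, MAT1 511 bp and DEHYDRIN 405 bp, with 52.6% and 35.7% of the gene covered in the 2 dehydrins. H3K56ac was at least 4153 bp away from each of the 4, farther than from 6 of the 8.

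**Figure D4:**
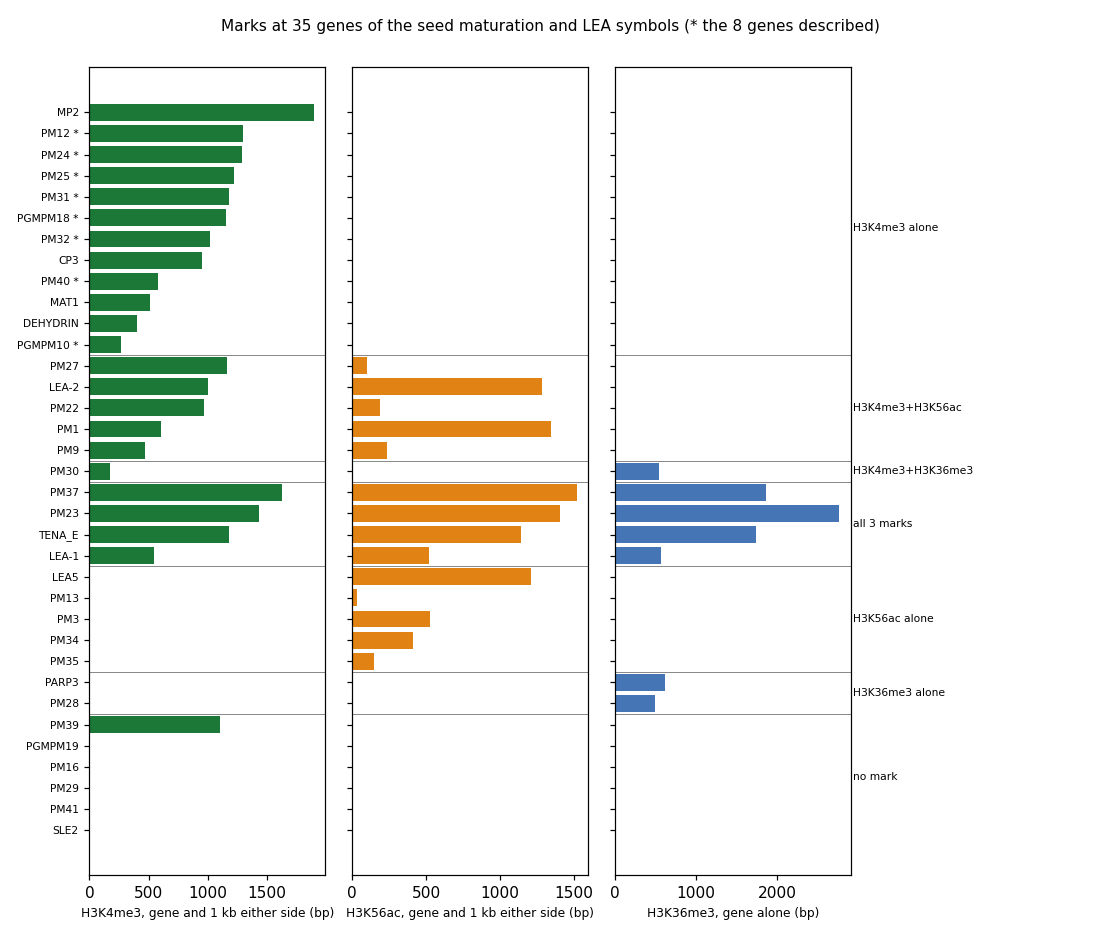
Length in bp of H3K4me3 and H3K56ac (gene and 1 kb either side) and of H3K36me3 (gene alone) at the 35 genes with seed maturation and LEA symbols, grouped by their marks, with asterisks at the 8 genes described. H3K4me3 in the top group runs from 1900 bp in MP2 to 270 bp in PGMPM10, and 5 genes below it have H3K56ac without H3K4me3.

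The series also held genes that carried the other marks. The 14 genes with H3K56ac at an end had 0 to 1625 bp of H3K4me3, with a median of 574 bp, and 36 to 1517 bp of H3K56ac. Of these, PM1, PM9, PM22, PM27 and LEA-2 had H3K4me3 and H3K56ac, with 602, 473, 969, 1167 and 1005 bp of H3K4me3. PM23, PM37, LEA-1 and TENA_E (synonym PM36) had all 3 marks. PM3, PM13, PM34, PM35 and LEA5 had H3K56ac without H3K4me3, with 1210 bp of H3K56ac at LEA5. PM13 also stands at the limit, with H3K56ac 964 bp from the gene and H3K4me3 1110 bp from it. At PM3 the H3K56ac lay outside the gene, 427 bp away. PM30 had 174 bp of H3K4me3 together with H3K36me3 over 51.7% of the gene. PM28 and PARP3 (synonym PM38), a poly(ADP-ribose) polymerase gene, had H3K36me3 alone. The combination of marks thus varied widely between genes that share a symbol series.

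The unmarked genes were PGMPM19, PM16, PM29, PM39, PM41 and SLE2, the last an Em-type LEA gene by its synonyms. PM39 had no mark within 1 kb of its ends, but a stretch of 1102 bp of H3K4me3 inside the gene, 25.1% of its 4382 bp. PM39 and PM40 are close in length, and PM40 had 582 bp at its lower end.

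Genes with symbols or synonyms of transcription factors of seed maturation or abscisic acid response were set beside the 8. The symbols FUS3, LEC2, ABI4, DOG1 and ABF were also sought and matched no gene. Of 8 matched genes, LEC1-A, LEC1-B and ABI3-2 had H3K4me3 alone, over 861, 577 and 828 bp. LEC1 is a subunit of the NF-Y factor and ABI3 a B3 domain factor, both known as master regulators of seed maturation. ABI3-1 had H3K56ac outside the gene, 812 bp from it and thus within the window, and 162 bp of H3K4me3 farther inside. ABI5, a bZIP factor of abscisic acid response, had no mark at its ends and 185 bp of H3K4me3 inside, and AREB3-1 was unmarked. AREB3-2 had H3K4me3 and H3K56ac, and BZIP1 (synonym AREB1) had all 3 marks, with 68.7% of its length under H3K36me3. The count of 3 of 8 with H3K4me3 alone (37.5%, exact 95% interval 8.52 to 75.5) stands against a background of 6.76%. This interval covers counting error alone and treats genes as independent, though LEC1-A and LEC1-B share a symbol. The difference from the background was not tested. With the longer 50% of each list the count was 0 of 8 and the background 5.13%. That cut keeps H3K4me3 peaks longer than 860 bp, more than LEC1-B and ABI3-2 hold in all, so their loss was fixed by it.

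Outside the series, 221 genes that have H3K4me3 alone and a symbol other than a LOC number were ranked by likeness to the median of the 8. The measure was the Euclidean distance over log2 gene length, log2 H3K4me3 length and the share of the gene covered, over 1 library. The 5 nearest were UGT8 (distance 0.0824), PIP2-2 (0.152), SGR (0.223), GPPS (0.319) and SMEP1 (0.373). PIP2-2 is an aquaporin gene, SGR a stay-green gene of chlorophyll breakdown and GPPS a geranyl diphosphate synthase gene. They had 920 to 1161 bp of H3K4me3 over 70.4% to 82.0% of genes of 1195 to 1495 bp. The nearest H3K56ac lay 3169 bp from GPPS, 5480 bp from SGR, 6622 bp from SMEP1, 8067 bp from PIP2-2 and 31225 bp from UGT8. The distances of PIP2-2 and UGT8 exceed those of all 8 seed maturation genes, and the other distances exceed those of 6 of the 8, all but PM24 and PM25.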

How the data were processed

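ChIP-seq peak lists of 3 marks in soybean leaf were used, with 1 library per mark. The deposited values are positions in bp without score, so no signal, fold or p-value of the authors enters. Per the submitters' processing notes, the tools were MACS2, SICER, Picard, Bowtie2 and Trimmomatic. The caller and threshold of each list and the soybean build: not given in the sources used here. H3K36me3 regions lie on a 200 bp grid, and their ends were moved by 1 bp to match the other lists.

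Genes came from the RefSeq table of Glycine_max_v4.0, without strand. The register was checked within 500 kb of each of the 8 genes. The share of H3K4me3 edges within 100 bp of a gene end was highest at shifts of -100 to 50 bp, out of shifts up to 2000 bp in steps of 50 bp, and distances are uncertain by as much. Table coordinates are not printed.

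The genes, lists and rules were chosen with earlier results of these data known. The text names the 8 genes, their neighbours, the seed maturation and regulator genes, and the 5 genes of most similar pattern. Overlap, length and distance functions were tested on simulated data. Python 3.11.15, pandas 2.3.3 and scipy 1.17.1 were used. The share of the regulator genes with H3K4me3 alone has an exact 95% interval. No sequence was used, and the planned descriptions of promoters and proteins were not run.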

Additional observations from a re-analysis of the deposited data

How the results depend on the processing

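Of the 8 genes, 8 kept H3K4me3 alone with windows of 500 bp and with an overlap of at least 100 bp, 4 with windows of 2 kb, and 5 with the longer 50% of each list, where the peaks of PGMPM10, PM31 and PM40 are left out by construction. With that part of the lists the class held 7 of the 35 seed maturation and LEA genes, against 12. It held 0 of the 8 regulator genes, against 3, and the peaks of LEC1-B and ABI3-2 are likewise left out by construction. The other alternatives gave 9 to 13 of the 35 and 3 of the 8. The alternatives for the regulators and for all genes were chosen after seeing the data. Over all protein-coding genes the class held 5.13% to 6.78% under the alternatives.

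The median H3K4me3 length of the 8 genes, 1168.5 bp, was 895 bp without flanks and 1084.5 bp with the longer 50% of H3K4me3 peaks. With the longer 50% of each list the median distance to H3K56ac was 4381 bp and to H3K36me3 20702 bp, as fewer regions were left to be near. No paired analysis was possible because each mark has 1 library and no result comes from a test. Depth is unknown, so genes below the callers' thresholds cannot be told from genes without a mark.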
